A study of Mus musculus with 10 samples.

Results

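The 8 genes described here encode surface proteins that erythroblasts use to adhere to their surroundings or to escape complement and phagocytosis: Itga4, Itgb1, Cd44, Icam4, Cd36, Cd47, Cd55 and Cd59a. They were chosen by name for these functions, with earlier results of these data known. They make up 8 of the 24421 genes in the count table, and all 8 were expressed highly enough to be tested. Their mRNA was measured by RNA-seq in R2 cells, the CD71+Ter119+ erythroblasts of mouse bone marrow, sorted from 10 transplant recipients of 4 donor genotypes. The groups were Ddx41+/+ Trp53+/+ (3 mice), Ddx41+/- Trp53+/+ (2 mice), Ddx41+/+ Trp53+/- (3 mice) and Ddx41+/- Trp53+/- (2 mice), with 1 library per mouse. The name of the deposited table says that samples numbered 35 and 45 were removed. They are not analysed here, the reason is not given in the sources used here, and the Ddx41+/- groups of 2 mice each give little information on their spread. Every recipient was a lethally irradiated BoyJ mouse that received 1000000 donor marrow cells and 2 rounds of 5 daily doses of 1 mg tamoxifen, and about 100000 R2 cells were sorted at 8 weeks after transplantation. In all groups the donor cells carried the tamoxifen-activated Cre recombinase CreERT2 at Rosa26, a locus active in nearly every cell type. The Ddx41+/- donors also carried a floxed Ddx41 allele, so deletion was not restricted to erythroid cells, whereas the Trp53 allele was inactivated in the germline. The ages and sexes of the mice were not given in the sources used here. DDX41 is an RNA helicase mutated in inherited myeloid neoplasms and Trp53 encodes the stress-activated transcription factor p53, and the design asks how loss of 1 Ddx41 allele changes erythroblasts with an intact or a reduced Trp53 dose.

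Erythroblasts mature in bone marrow while attached to a central macrophage. Integrins on the erythroblast, formed by an alpha chain from Itga4 and a beta chain from Itgb1, bind VCAM1 on that macrophage, and ICAM4 is an erythroid ligand for integrins. CD44 binds hyaluronan and is lost from the surface as erythroblasts mature. CD55 and CD59 are anchored in the membrane by glycosylphosphatidylinositol (GPI) and protect blood cells from complement, CD55 by speeding the decay of the convertases and CD59 by blocking the membrane attack complex, while CD47 restrains phagocytosis through SIRPA on macrophages.

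The libraries held 7866648 to 20283930 counts, with the fewest in the Ddx41+/- Trp53+/+ replicate 34, 1 of the 2 mice of its genotype. Ddx41, the targeted gene, averaged 23.2, 15.2, 24.2 and 14.1 CPM (counts scaled to library size) in the 4 genotypes in the order above and was lower in Ddx41+/- cells over both Trp53 genotypes (log2 fold change -0.70, adjusted p = 0.00786 by edgeR's quasi-likelihood test). Trp53 averaged 57.9, 63.7, 43.1 and 43.2 CPM. Tfrc, the gene for the sort marker CD71, was abundant in every library, at 2692 to 3458 CPM. In contrast, the 4 adult globin genes were listed at 0 to 21 counts per library, although erythroblasts transcribe them at very high levels. Neutrophil markers were also present in all libraries, at a summed level of 4804 to 8279 CPM over 11 genes. In sorted cells, fewer cells of a type and less RNA per cell cannot be told apart.

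Motifs of erythroid transcription factors were searched on both strands in the 250 bases upstream of each start in the RefSeq promoter table (build GRCm38.p6). All 8 genes matched, with 9 starts. The CACCC box CCACACCC, the kind of element bound by the erythroid factor KLF1, was found upstream of Cd59a and Itga4 and in 3.20% of all 32851 promoters. The GATA motif AGATAA was found upstream of Cd44 and Icam4 and in 9.99% of all promoters. The letters of these motifs do not overlap each other. The upstream sequences of Cd59a, the gene with the greatest difference between genotypes, of Itga4, the other carrier of the CACCC box, and of Cd44, a carrier of the GATA motif, are shown 5′ to 3′ on the strand of the gene with the motif in capitals. They lie at chr2:104095551-104095800 (plus strand), chr2:79255176-79255425 (plus strand) and chr2:102901666-102901915 (minus strand). The box of Cd59a lies on the opposite strand in 2 copies that begin 24 and 13 bases before the RefSeq start, that of Itga4 begins 59 bases before the start, and the GATA motif of Cd44 begins 233 bases before it. A match of letters is a description and not evidence of binding.
Cd59a: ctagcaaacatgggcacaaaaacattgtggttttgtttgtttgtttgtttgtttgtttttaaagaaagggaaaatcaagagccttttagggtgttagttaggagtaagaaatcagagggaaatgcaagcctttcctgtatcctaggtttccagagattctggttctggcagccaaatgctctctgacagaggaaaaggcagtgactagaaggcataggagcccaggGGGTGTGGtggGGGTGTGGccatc
Itga4: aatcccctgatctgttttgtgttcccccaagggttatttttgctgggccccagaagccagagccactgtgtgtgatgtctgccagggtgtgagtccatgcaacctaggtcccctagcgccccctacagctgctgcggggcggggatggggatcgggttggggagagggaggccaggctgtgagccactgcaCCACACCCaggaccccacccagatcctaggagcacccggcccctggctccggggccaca
Cd44: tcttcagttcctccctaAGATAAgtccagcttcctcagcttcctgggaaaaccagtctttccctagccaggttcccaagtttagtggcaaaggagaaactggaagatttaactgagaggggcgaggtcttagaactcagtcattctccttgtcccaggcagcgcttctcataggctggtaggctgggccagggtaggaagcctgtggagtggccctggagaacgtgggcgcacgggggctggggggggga

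Levels of different genes were compared per kilobase of exon, counting all annotated exons of a gene. This length was 13978 bases for Itga4 and 4081 for Itgb1, while their longest transcripts have 9767 and 3815 bases. Which transcripts the cells use was not tested, so the order of genes with close levels could change with another length. Averaged over the 10 mice, Cd36 had the highest level at 215 ± 23.2 CPM per kb (SD), followed by Icam4 at 137 ± 11.1, Cd47 at 109 ± 3.53, Itgb1 at 61.1 ± 5.75, Itga4 at 47.01 ± 3.004, Cd59a at 37.5 ± 11.4, Cd55 at 11.3 ± 0.884 and Cd44 at 10.02 ± 1.27 CPM per kb. In the Ddx41+/+ Trp53+/+ cells, Cd36 exceeded 98.3% of tested genes on this scale and Cd44 exceeded 70.5%. With the exon lengths used here, the 4 highest genes did not overlap with their neighbours in any mouse. They ran from Cd36 (183 to 247 CPM per kb) through Icam4 (122 to 152) and Cd47 (105 to 116) to Itgb1 (55.2 to 71.4). With these lengths Itgb1 also stayed above Itga4 (41.9 to 51.1). Cd59a (22.4 to 57.5 CPM per kb) overlapped with both Itga4 and Itgb1, and Cd55 (10.2 to 12.9) overlapped with Cd44 (8.13 to 11.7), so these neighbours were not separated by their spread. The complement regulators thus differed in level, with Cd55 below Cd59a in every mouse.

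The spread between mice also separated the genes. Cd47 varied least, with a coefficient of variation (CV) of 3.24% over the 10 mice and a highest level 1.11 times the lowest. Its CV exceeded that of 0.295% of tested genes, and the median CV was 6.23% among the 144 genes within 1.25-fold of its mean CPM. Cd59a varied most, with a CV of 30.4% and a highest level 2.57 times the lowest, against a median CV of 7.83% among 868 genes within 1.25-fold of its mean CPM. The other 6 genes had CVs of 6.39% (Itga4) to 12.7% (Cd44).

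**Figure D1:**
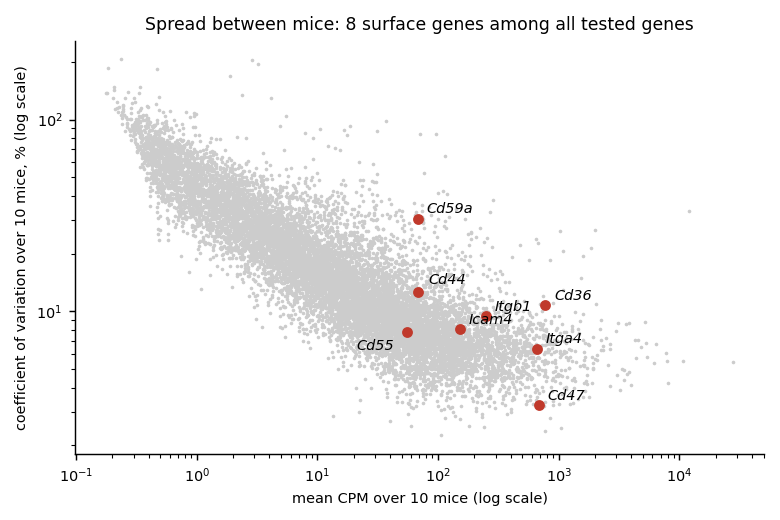
Coefficient of variation in percent (vertical axis, log scale) against mean CPM (horizontal axis, log scale) over the 10 mice, with each tested gene as a grey point and the 8 surface genes in red. Cd59a (30.4%) sits above most genes of its level and Cd47 (3.24%) near the lower edge.

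A gene was called when its adjusted p was under 0.05 and its fold change over 1.5 in edgeR's quasi-likelihood test across all 11846 tested genes. With Trp53+/+, 1 of the 8 genes was called between Ddx41+/- and Ddx41+/+ cells, against 0.54% of all tested genes (64 genes) and 0.38% called higher. That gene was Cd59a, which rose 1.81-fold. The other 7 genes had 95% intervals within 0.761- to 1.29-fold and adjusted p-values of 0.563 to 0.980. With Trp53+/-, none of the 8 was called between Ddx41+/- and Ddx41+/+ cells (background 0.0422%), and 1 had an unadjusted p under 0.05 by edgeR. No gene was called in the other 5 comparisons either, namely the Trp53 effect with Ddx41+/+ (background 0.912%), the Trp53 effect with Ddx41+/- (0.169%), the mean Ddx41 effect (0.329%), the mean Trp53 effect (0.439%) and the interaction, which is the Ddx41 effect with Trp53+/- minus that with Trp53+/+ (0.0675%). In these 5 comparisons the number of the 8 genes with an unadjusted p under 0.05 was 1, 1, 3, 2 and 1. DESeq2 called 0 of the 8 in all 7 comparisons, Cd59a included. The median log2 fold change of the 8 genes in the Ddx41 effect with Trp53+/+ was -0.08, and that of all genes 0.0010, while the median absolute values were 0.11 and 0.15.

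**Figure D2:**
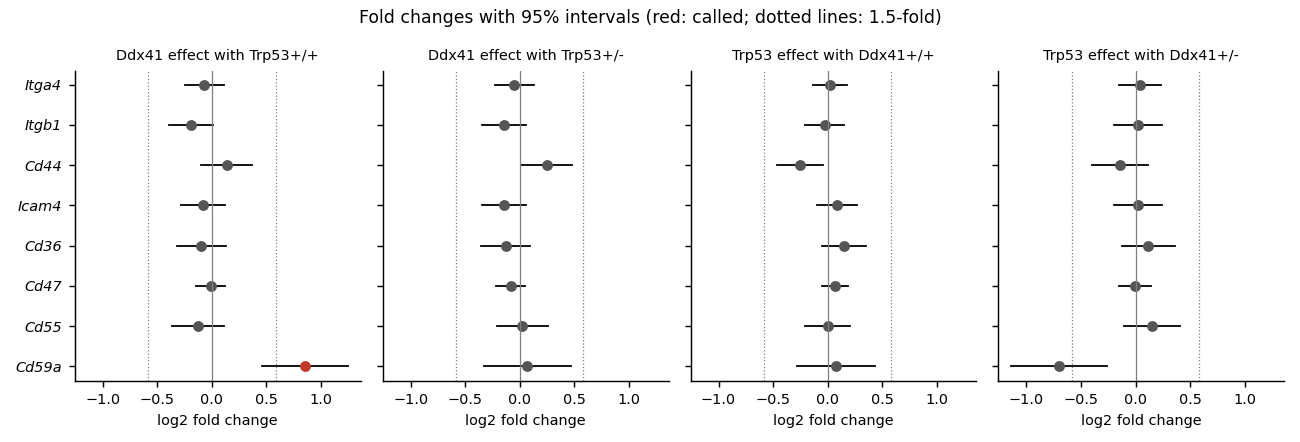
Log2 fold change (horizontal axis) of the 8 genes in the 4 comparisons of genotype pairs, with points for the estimate and lines for the 95% interval. Cd59a stands apart in the Ddx41 effect with Trp53+/+ (0.85, red, called) and in the Trp53 effect with Ddx41+/- (-0.70, not called), and the other genes lie between -0.25 and 0.25.

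Cd59a (chr2:104095801-104115354, plus strand, GRCm38) encodes the mouse CD59 of most tissues. Its level was 55.4, 40.6 and 74.4 CPM in the 3 Ddx41+/+ Trp53+/+ mice, 100.2 and 104 CPM in the Ddx41+/- Trp53+/+ mice, 63.2, 68.5 and 47.9 CPM in the Ddx41+/+ Trp53+/- mice, and 57.2 and 68.4 CPM in the Ddx41+/- Trp53+/- mice. Both Ddx41+/- Trp53+/+ mice lay above all 8 other mice, and the other 3 genotypes overlapped. The means were 56.8 ± 16.9 (SD, n = 3), 102 ± 2.80 (n = 2), 59.9 ± 10.7 (n = 3) and 62.8 ± 7.91 CPM (n = 2). With Trp53+/+, Cd59a rose with loss of 1 Ddx41 allele (log2 fold change 0.85, SE 0.186, adjusted p = 0.0493 by edgeR; fold 1.81, 95% interval 1.37 to 2.37). The adjusted p lay at the limit, and the call was lost with DESeq2 (adjusted p = 0.0942), with DESeq2 size factors in edgeR (0.0502), with a stricter count filter (0.0558), with only the 2 genotypes in the fit (0.0660) and when any of 7 of the 10 mice was left out. These were the Ddx41+/+ Trp53+/+ replicates 10 and 11 (adjusted p = 0.118 and 0.0965), the Ddx41+/- Trp53+/+ replicates 32 and 34 (0.236 and 0.371), the Ddx41+/+ Trp53+/- replicate 22 (0.0599) and the Ddx41+/- Trp53+/- replicates 46 and 47 (0.0657 and 0.0688). The log2 fold change stayed between 0.66 and 1.09 over all 16 alternatives, of which 5 kept the call. These 5 include the alternative with no fold change limit, which reuses the reported fit and so could not lose the call.

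**Figure D3:**
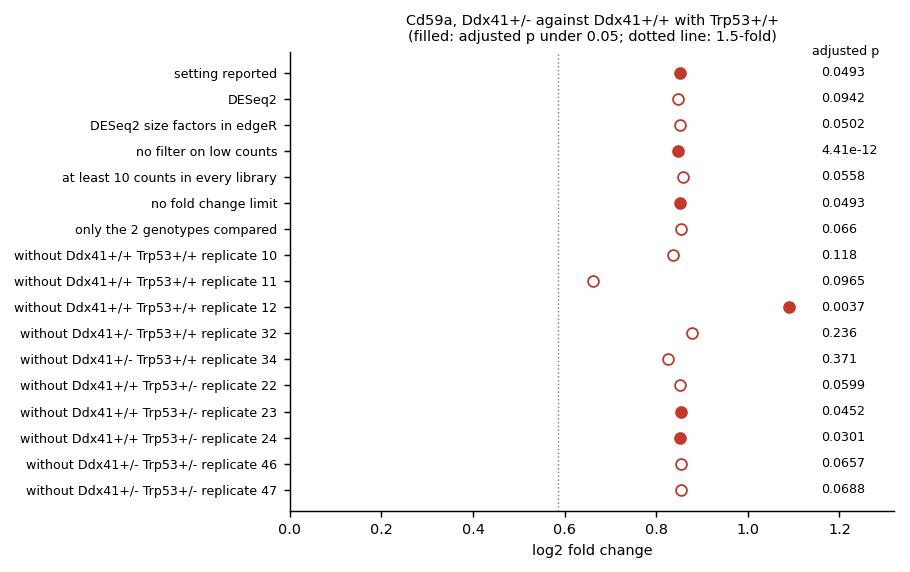
Log2 fold change of Cd59a between Ddx41+/- and Ddx41+/+ cells with Trp53+/+ (horizontal axis) under the reported setting and 16 alternatives (rows), with the edgeR or DESeq2 adjusted p at the right and filled points where it was under 0.05. All values lie above the 1.5-fold line, from 0.66 to 1.09, and 5 alternatives are filled. The filled row with no fold change limit repeats the reported fit and could not differ from it.

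With Trp53+/-, the Ddx41 effect on Cd59a was 0.07 on the log2 scale (SE 0.188, edgeR adjusted p = 0.9997). The difference between these Ddx41 effects was -0.78 (95% interval -1.35 to -0.22, SE 0.266, unadjusted p = 0.00970), and it was not called after adjustment over all genes (edgeR adjusted p = 0.760). Among Ddx41+/- cells, Cd59a was 0.615-fold as high with Trp53+/- as with Trp53+/+ (95% interval 0.454 to 0.832, edgeR adjusted p = 0.415). These comparisons share the Ddx41+/- Trp53+/+ mice. Markers of B cells moved in the same comparison as Cd59a: of 11 tested B cell markers, 2 were called higher in Ddx41+/- than Ddx41+/+ cells with Trp53+/+, and their summed level was 214 to 364 CPM in Ddx41+/+ and 361 to 528 CPM in Ddx41+/- cells. In the Trp53+/- mice of both Ddx41 genotypes the same sum was 395 to 491 CPM while Cd59a was 47.9 to 68.5 CPM. The part of B cells in the Cd59a values was not tested. None of the 11 neutrophil, 11 macrophage, 8 later erythroid or 6 earlier erythroid markers tested was called in the Ddx41 effect with Trp53+/+.

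Cd59b, a tandem copy of Cd59a on the same chromosome (chr2:104069849-104091187), was at 6.10 to 9.60 CPM over the 10 mice. It was not called in any comparison, and in the Ddx41 effect with Trp53+/+ its log2 fold change was -0.17 (edgeR adjusted p = 0.875). The copies share few reads, since 1.73% of the 75-base stretches of the Cd59a transcript occur in Cd59b.

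Cd55 (chr1:130439027-130462744, minus strand), the other GPI-anchored regulator, was at 53.1, 52.9 and 61.3 CPM in Ddx41+/+ Trp53+/+ mice, 49.4 and 52.96 CPM in Ddx41+/- Trp53+/+ mice, 51.0, 53.4 and 62.6 CPM in Ddx41+/+ Trp53+/- mice and 57.3 and 56.2 CPM in Ddx41+/- Trp53+/- mice. The genotypes overlapped except among Ddx41+/- cells, where both Trp53+/- mice were higher. No difference was called, and that between Ddx41+/- and Ddx41+/+ cells with Trp53+/+ was -0.13 on the log2 scale. Its copy Cd55b was at 0 to 5 counts per library and was not tested. Cd55 and Cd55b share 7.55% of the 75-base stretches of the Cd55 transcript, so Cd55 levels could be affected by how shared reads were counted.

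Cd47 (chr16:49800533-49915010, plus strand) was at 663, 679.6 and 692 CPM in Ddx41+/+ Trp53+/+ mice, 681 and 665 CPM in Ddx41+/- Trp53+/+ mice, 729, 690.0 and 711 CPM in Ddx41+/+ Trp53+/- mice and 657 and 683 CPM in Ddx41+/- Trp53+/- mice. With Trp53+/-, both Ddx41+/- mice lay below the 3 Ddx41+/+ mice, and the other comparisons overlapped. The log2 fold changes in the Ddx41 effect with Trp53+/+ and in the Trp53 effect with Ddx41+/+ were -0.01 and 0.07, and none of the differences was called.

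Itga4 (chr2:79255426-79333123, plus strand), the alpha chain of the VCAM1-binding integrin, was at 630.4, 647 and 713 CPM in Ddx41+/+ Trp53+/+ mice, 651 and 612 CPM in Ddx41+/- Trp53+/+ mice, 672, 657 and 690.5 CPM in Ddx41+/+ Trp53+/- mice and 585 and 715 CPM in Ddx41+/- Trp53+/- mice. The genotypes overlapped in all 4 comparisons of pairs, and the Ddx41+/- Trp53+/- mice held both the lowest and the highest value. Part of its exons (8.04%) overlaps Cerkl on the opposite strand, and since the strand setting of the counting was not given in the sources used here, reads of that stretch cannot be told apart.

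Itgb1 (chr8:128685654-128733200, plus strand), the shared beta chain, was at 252, 291 and 245 CPM in Ddx41+/+ Trp53+/+ mice, 235 and 225 CPM in Ddx41+/- Trp53+/+ mice, 285, 230.2 and 259.7 CPM in Ddx41+/+ Trp53+/- mice and 225 and 243 CPM in Ddx41+/- Trp53+/- mice. With Trp53+/+ the Ddx41+/- mice lay below all Ddx41+/+ mice, and with Trp53+/- they overlapped. The mean Ddx41 effect was -0.17 on the log2 scale (SE 0.0676, unadjusted p = 0.0255), which missed the limit after adjustment (edgeR adjusted p = 0.470).

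Cd44 (chr2:102811141-102901665, minus strand) was at 64.4, 66.4 and 79.1 CPM in Ddx41+/+ Trp53+/+ mice, 77.9 and 75.7 CPM in Ddx41+/- Trp53+/+ mice, 55.1, 56.3 and 64.4 CPM in Ddx41+/+ Trp53+/- mice and 74.6 and 64.8 CPM in Ddx41+/- Trp53+/- mice. The Ddx41+/+ Trp53+/- mice were lowest as a group, and their highest mouse lay just under the lowest Ddx41+/+ Trp53+/+ and Ddx41+/- Trp53+/- mice and further below both Ddx41+/- Trp53+/+ mice. The log2 fold change was -0.25 for the Trp53 effect with Ddx41+/+ (SE 0.0986, unadjusted p = 0.0210, edgeR adjusted p = 0.385) and 0.25 for the Ddx41 effect with Trp53+/- (SE 0.109, unadjusted p = 0.0375, edgeR adjusted p = 0.9997), and these comparisons share the Ddx41+/+ Trp53+/- mice. Over both Trp53 genotypes the mean Ddx41 effect was 0.19 (edgeR adjusted p = 0.468).

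Markers of other cells moved with Cd44 in part of the comparisons. In each of the 4 genotypes the mouse with the highest neutrophil marker sum also had the highest Cd44, which held for 3 of 4 genotypes for Cd55, Itga4 and Cd36, for 2 for Cd47, for 1 for Cd59a and Itgb1 and for 0 for Icam4. With 2 or 3 mice per genotype, the same mouse can easily be highest in both by chance. The share of all tested genes with such matches was not counted. The highest neutrophil sums of the 4 genotypes were 8279, 8110, 8121 and 8219 CPM, against 4804 to 6017 CPM in the other 6 mice. Between genotypes, 8 of 11 neutrophil markers were above 0 in the Ddx41 effect with Trp53+/+ (median log2 fold change 0.19, Cd44 0.14). In the Trp53 effect with Ddx41+/-, 0 of 11 were (median -0.15, Cd44 -0.14). The Trp53 effect with Ddx41+/+ differed, with 10 of 11 above 0 (median 0.14) and Cd44 at -0.25. In the Ddx41 effect with Trp53+/-, 4 of 11 were above 0 (median -0.01) and Cd44 was at 0.25. Macrophage markers were at a summed 238 to 326 CPM in Ddx41+/+ Trp53+/- mice, 298 to 549 CPM in Ddx41+/+ Trp53+/+ mice, 364 to 451 CPM in Ddx41+/- Trp53+/+ mice and 372 to 473 CPM in Ddx41+/- Trp53+/- mice. All 11 macrophage markers tested had a log2 fold change under 0 in the Trp53 effect with Ddx41+/+ and above 0 in the Ddx41 effect with Trp53+/-, although none was called. In the Ddx41 effect with Trp53+/+, 2 of the 11 were above 0 (median log2 fold change -0.18), while that of Cd44 was 0.14, and the Ddx41+/+ Trp53+/+ replicate 10 had the highest macrophage sum of its genotype (549 CPM) and the lowest Cd44 (64.4 CPM). The part of these cells in the Cd44 values was not tested.

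**Figure D4:**
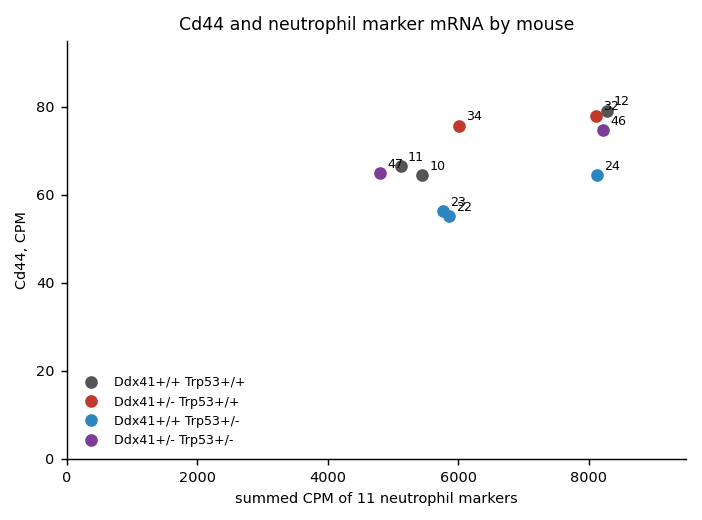
Cd44 in CPM (vertical axis) against the summed CPM of 11 neutrophil markers (horizontal axis) for the 10 mice, coloured by genotype and numbered by replicate. In each genotype the mouse at the right, with the highest sum, has the highest Cd44 of its genotype.

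Icam4 (chr9:21029373-21030595, plus strand), an erythroid integrin ligand, was at 152, 168 and 137 CPM in Ddx41+/+ Trp53+/+ mice, 136 and 153 CPM in Ddx41+/- Trp53+/+ mice, 169, 151 and 166 CPM in Ddx41+/+ Trp53+/- mice and 139.9 and 152 CPM in Ddx41+/- Trp53+/- mice. All 4 genotypes overlapped with each other. Its mean Ddx41 effect was -0.11 on the log2 scale (unadjusted p = 0.109). All of its exon bases are overlapped by the antisense gene Gm47079 in the GENCODE M21 annotation, so without a stated strand setting reads of the pair cannot be told apart.

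Cd36 (chr5:17781690-17888801, minus strand), a receptor for thrombospondin and fatty acids on early erythroblasts, was at 717, 657 and 887 CPM in Ddx41+/+ Trp53+/+ mice, 755 and 655 CPM in Ddx41+/- Trp53+/+ mice, 801, 838 and 871 CPM in Ddx41+/+ Trp53+/- mice and 720.5 and 809 CPM in Ddx41+/- Trp53+/- mice. The 3 Ddx41+/+ Trp53+/- mice were close together and high, but Ddx41+/+ Trp53+/+ mice spanned them. The Trp53 effect with Ddx41+/+ was 0.15 (unadjusted p = 0.127), and nothing was called.

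**Figure D5:**
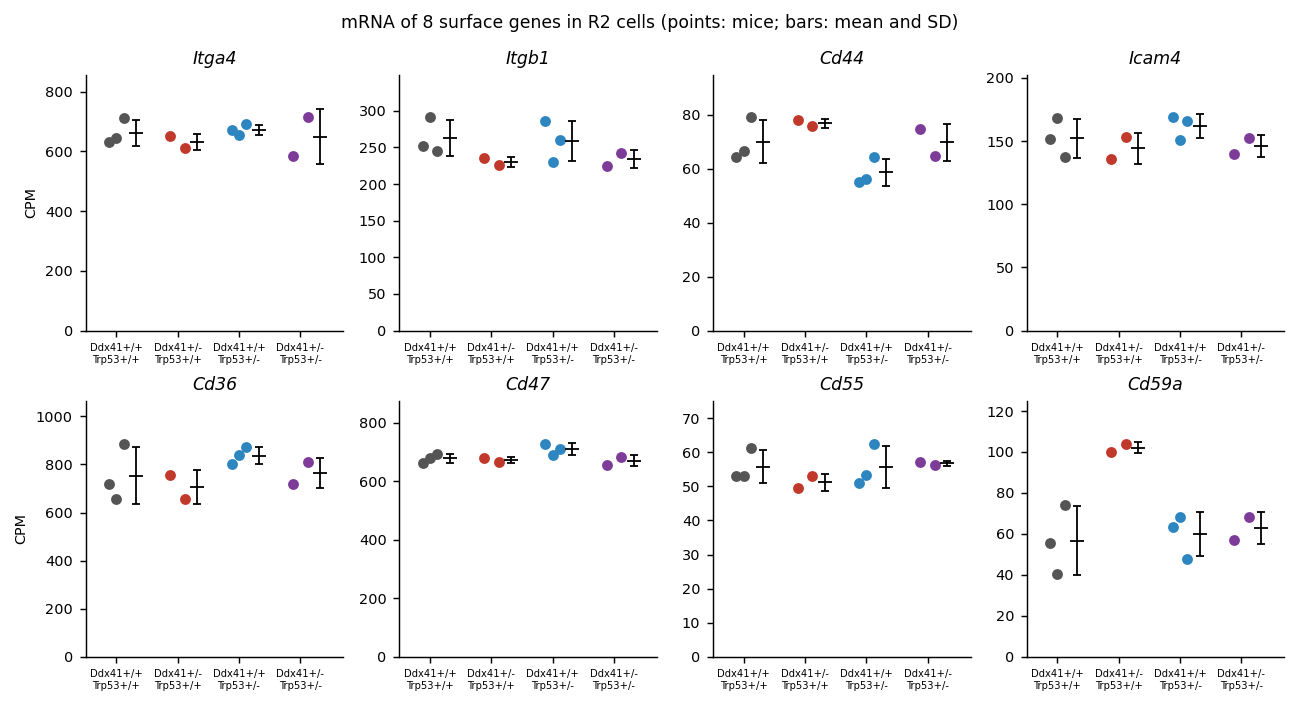
CPM (vertical axis, from 0) of each of the 8 genes in every mouse, with points for mice by genotype and bars for the mean and SD. Cd59a in the Ddx41+/- Trp53+/+ mice (100.2 and 104 CPM) lies above the 8 other mice, whose highest is at 74.4 CPM.

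The number of the 8 genes whose mice did not overlap between genotypes was 2 for the Ddx41 effect with Trp53+/+ (background 24.9% of all tested genes), 2 for the Ddx41 effect with Trp53+/- (20.0%), 1 for the Trp53 effect with Ddx41+/+ (14.1%) and 3 for the Trp53 effect with Ddx41+/- (37.3%). The shares that these counts make of 8 were near the background shares. The share of genes with an unadjusted p under 0.05 was 9.64%, 3.75%, 9.44% and 5.41% in the same comparisons, where 1 of the 8 passed in each, and 9.28%, 10.6% and 5.01% for the mean Ddx41 effect, the mean Trp53 effect and the interaction.

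The partners of these proteins were followed in 6 lists with 144 genes besides the 8, of which 122 were tested. They cover integrins and other adhesion receptors (27 tested), integrin activation (25), complement control (8), GPI anchor synthesis (29), partners of CD44 (18) and partners of CD47 (15). Of these 122 genes, 1 was called in the Trp53 effect with Ddx41+/+ (background 0.912% of all tested genes), and none in the other 6 comparisons. By unadjusted p under 0.05, edgeR counted 10 of 122 in the Ddx41 effect with Trp53+/+ (background 9.64%), 8 with Trp53+/- (3.75%), 18 in the Trp53 effect with Ddx41+/+ (9.44%) and 9 with Ddx41+/- (5.41%). The counts were 14 in the mean Ddx41 effect (9.28%), 18 in the mean Trp53 effect (10.6%) and 7 in the interaction (5.01%). All 29 genes of GPI anchor synthesis, on which CD55 and CD59 depend, were tested and 0 were called, with 1 at an unadjusted p under 0.05 in the Ddx41 effect with Trp53+/+. Among the complement regulators outside the 8, Cr1l, which encodes the rodent regulator Crry and is named here after its values were seen, was at 69.7 to 83.7 CPM over the 10 mice.

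The called partner was Icam2, a ligand of the leukocyte integrin LFA-1. It was at 1.58, 1.36 and 1.59 CPM in Ddx41+/+ Trp53+/+ mice, 2.92 and 3.43 CPM in Ddx41+/- Trp53+/+ mice, 3.60, 2.97 and 4.48 CPM in Ddx41+/+ Trp53+/- mice and 3.95 and 4.49 CPM in Ddx41+/- Trp53+/- mice. The Ddx41+/+ Trp53+/+ mice were below all others, and Icam2 rose with loss of 1 Trp53 allele (log2 fold change 1.29, SE 0.284, edgeR adjusted p = 0.0382). DESeq2 called it too (adjusted p = 0.0147), but the edgeR call was lost with only the 2 genotypes in the fit (adjusted p = 0.118) and when any mouse other than the Ddx41+/- Trp53+/+ replicate 32 was left out (9 of 10 mice, adjusted p = 0.0506 to 0.303). Its level was low, at 23 to 30 counts in the 3 Ddx41+/+ Trp53+/+ libraries. In the same comparison 6 of 11 B cell markers were called higher. All 11 summed to 214 to 364 CPM in Ddx41+/+ Trp53+/+ and 395 to 477 CPM in Ddx41+/+ Trp53+/- mice. The part of B cells in the Icam2 values was not tested.

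Across the 10 mice, the 8 genes formed 28 pairs, of which 13 had a Pearson correlation above 0 in log2 CPM. As a description over mice that share libraries and genotypes, the highest pooled Pearson correlations were those of Itga4 with Cd36 (r = 0.751, Spearman's rho 0.818, r = 0.871 without the 2 mice farthest from the median) and of Icam4 with Itgb1 (r = 0.745, rho 0.624, 0.878 without them). In the deviations of mice from their genotype means the order changed: Cd44 with Cd55 was highest (r = 0.830, against 0.195 pooled), followed by Cd47 with Itga4 (0.752), Itga4 with Cd36 (0.750) and Icam4 with Itgb1 (0.732). Cd44 and Icam4 had the lowest pooled value (r = -0.707, rho -0.612, -0.515 without the 2 farthest mice). The integrin chains Itga4 and Itgb1 had a pooled r of 0.341.

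Each gene was also set beside 11845 others to find the 2 whose levels over the 10 mice were most like it, a search that returns high values by its size alone. These were Ttl (r = 0.920) and Usp18 (0.909) for Cd59a, Picalm (0.932) and Serinc3 (0.912) for Cd47, Ccdc71l (0.950) and Grb2 (0.874) for Cd55, and Slfn2 (0.945) and Slfn1 (0.899) for Cd44. The others were Vprbp (0.961) and Top1 (0.931) for Itga4, Nelfcd (0.955) and Atp5f1 (0.940) for Itgb1, Mgst3 (0.955) and Ctbp1 (0.924) for Icam4, and H1fx (0.972) and Usp15 (0.923) for Cd36. The 16 names were all different, so no gene was nearest to more than 1 of the 8.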

How the data were processed

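R2 (CD71+Ter119+) cells of 10 recipients were profiled by RNA-seq, and the authors deposited 1 table of raw counts per gene. The submitters' processing notes name FastQC 0.11.7, HISAT2 2.0.5, featureCounts 1.5.2 and the mm10 build; the annotation and strand setting are not given in the sources used here. The labels name a stranded mRNA kit and the methods an unstranded one. Replicates were separate mice, 2 or 3 per genotype, and the numbers in the labels identify mice and do not pair them. The counts were analysed with edgeR 4.0.16 in R 4.3.3 (TMM scaling, filterByExpr by genotype, quasi-likelihood test, 1 mean per genotype over all 10 libraries, two-sided, Benjamini-Hochberg adjustment over 11846 genes; 12575 were removed as too low). Genes were called at adjusted p under 0.05 and over 1.5-fold. CPM were computed from TMM-scaled totals, for log2 values the prior count was 2. DESeq2 1.42.0, other size factors and filters, a fit of only the 2 genotypes compared, and each mouse left out were the alternatives. The fitting script was tested on simulated counts with changes larger than any estimated for the 8 genes in the reported fit. That test does not show how well smaller changes are detected. Positions and exon lengths came from GENCODE M21 (GRCm38), and promoters from RefSeq (GRCm38.p6). Counts of 7866648 to 20283930 per library set the precision, and intervals are at the 95% level. The edgeR test gives no SE, so each SE was derived from the log2 fold change and the F statistic. Intervals were then built from that SE and a t quantile. The genes and lists were chosen with earlier results of these data known. Named genes were the 8, their tandem copies Cd55b and Cd59b, called genes of the 6 partner lists and the 2 most correlated genes of each of the 8. Marker lists for B cells, macrophages, neutrophils, megakaryocytes, T and NK cells and earlier, R2 and later erythroid cells were summed in CPM. T and NK cell markers summed to 7.92 to 17.9 CPM and megakaryocyte markers to 90.4 to 112 CPM, with none called. R2 markers summed to 40530 to 46295 CPM and later erythroid markers to 9811 to 11347 CPM, with none called. The 6 earlier erythroid markers summed to 32.9 to 64.3 CPM, with Myb called higher in the Trp53 effect with Ddx41+/+ (log2 fold change 0.84, edgeR adjusted p = 0.0159).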

Additional observations from a re-analysis of the deposited data

How the results depend on the processing

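Of 431 values of the 8 genes under the alternatives, 403 kept their direction and their side of the limits, 14 changed sign, 11 lost the limit and 3 gained it. These values cover all 8 genes in the Ddx41 effect with Trp53+/+ and in the mean effects, and only Cd59a in the other comparisons. The call of Cd59a in the Ddx41 effect with Trp53+/+ made 1 called gene of 8. The number was 0 with DESeq2, with DESeq2 size factors, with at least 10 counts in every library and with only the 2 genotypes compared, and 0 to 1 when a mouse was left out. With no filter on low counts Cd59a was also called in the Trp53 effect with Ddx41+/- (adjusted p = 3.85e-06) and in the interaction (2.13e-04), and with only the 2 genotypes compared it was called in the Trp53 effect with Ddx41+/- (-0.71, adjusted p = 0.00399), giving 1 gene of 8 in each. The changes of sign all came from leaving out a mouse and from values near 0: log2 fold changes spanned -0.0327 to 0.00751 (Cd47) and -0.206 to 0.039 (Cd36) in the Ddx41 effect with Trp53+/+, -0.0705 to 0.197 (Cd59a) in the Ddx41 effect with Trp53+/-, -0.115 to 0.318 (Cd59a) in the Trp53 effect with Ddx41+/+, -0.13 to 0.00925 (Itga4) in the mean Ddx41 effect, and -0.0427 to 0.0968 (Itga4) and -0.04 to 0.0408 (Itgb1) in the mean Trp53 effect. Genes called among all tested numbered 64, 5, 108, 20, 39, 52 and 8 in the 4 comparisons of pairs, the mean effects and the interaction. With no filter they numbered 243, 39, 250, 67, 101, 142 and 100, and with DESeq2 131, 7, 160, 36, 55, 99 and 29. Leaving out a mouse gave 13 to 103, 1 to 10, 35 to 115, 13 to 24, 14 to 58, 15 to 66 and 8 to 12. With only the 2 genotypes compared, 66 and 37 genes were called in the Trp53 effects with Ddx41+/+ and Ddx41+/-, with at least 10 counts 2 in the Ddx41 effect with Trp53+/-, and with no fold limit 61 and 79 in the mean effects. The cause of these changes was not tested. No paired analysis was possible because the genotypes share no replicate numbers. With 2 or 3 mice per genotype, a value that misses the limit does not show that genotypes are alike.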
